A study of Mus musculus with 25 samples.

Results

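The 6 genes described here, H2-Aa, H2-Ab1, H2-Eb1, Cd74, Ciita and H2-DMa, belong to the MHC class II route of antigen presentation. They were matched by the gene symbol of the array platform, and 14 probe sets carry 1 of these symbols alone, among 34945 probe sets with a single symbol for 18193 genes. Every probe set was read on 25 Affymetrix mouse expression arrays, 1 sample each, in 10 groups. Induced macrophages (iMac) were made from C10, a mouse pre-B cell line that turns into macrophage-like cells under estradiol, grown with IL-3 and CSF-1 (stated in the labels of the scramble group), and are 1 line in all 3 of their groups. They had received lentiviral shRNA against Ebf1 (2 arrays), shRNA against Pou2af1 (2 arrays) or scramble shRNA (2 arrays), with 2 days of puromycin, before conversion. iHeps are hepatocyte-like cells made from E13.5 C57BL/6J embryonic fibroblasts with Foxa1 and Hnf4a retroviruses, and 3 independent lines were measured. Engrafted iHeps (2 arrays) were the GFP-positive cells sorted from crypts of dextran sulfate sodium (DSS)-damaged colons of Rag2gammac-/- mice 12 days after transplantation, and colon (2 arrays) was crypts of 8-week-old Rag2gammac-/- mice. Such mice lack T, B and NK cells but keep macrophages and other myeloid cells. Adult liver (2 arrays) and E14.5 fetal liver (2 arrays) came from C57BL/6J mice, and the labels of adult liver differ, giving whole liver of 8-week-old mice in one field and hepatocytes isolated with collagenase from 10-week-old mice in another. Further iHeps carried Cdx2 shRNA (4 arrays) or scramble shRNA (4 arrays), with 2 days of puromycin and then a week of culture.

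MHC class II molecules display peptides from endocytosed proteins to CD4+ T cells. The alpha and beta chains meet the invariant chain Cd74, which fills the groove and steers the complex to endosomes, where cathepsins cut Cd74 down and H2-DM exchanges its last fragment for an antigenic peptide. The genes are best known from B cells, dendritic cells and macrophages, and the transactivator Ciita, which binds no DNA itself but joins the factors assembled on the X and Y boxes of their promoters, sets their transcription. H2-Aa and H2-Ab1 encode the alpha and beta chains of the I-A molecule, H2-Eb1 the beta chain of I-E, and H2-DMa the alpha chain of H2-DM.

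In the RefSeq annotation of GRCm38.p6, H2-Aa, H2-Ab1, H2-Eb1 and H2-DMa lie in 1 cluster on chromosome 17, in which H2-Ab1, H2-Aa and H2-Eb1 follow one another and H2-DMa lies further off beside H2-DMb2 and H2-DMb1, the genes of its beta chain partners. Promoter windows of 250 bases before to 50 after the start were matched for 8 of the 12 class II genes looked up, 3 of them among the 6 genes (H2-Aa, H2-Eb1 and H2-DMa, the last with 2 windows). The windows were searched on both strands for a core of the X box, CTNGCAAC, and a core of the Y box, TGATTGG, letters picked with these sequences in view, which do not overlap. The start of 5 windows is the first base of the annotated gene, whereas that of the other 4 lies inside the gene, by 172 bases for H2-Eb2, 2020 for H2-DMb2 and 3139 and 5825 for the 2 windows of H2-DMa. The 150 bases before the start are shown for H2-Aa and H2-Eb1, members whose windows begin at the gene's first base. They are also shown for H2-Ob, a class II gene higher under both shRNA labels than with scramble shRNA in the macrophages. Both cores are in capitals. The GRCm38.p6 positions are chr17:34287824-34287973 (minus strand) for H2-Aa, chr17:34305717-34305866 (plus strand) for H2-Eb1 and chr17:34238755-34238904 (plus strand) for H2-Ob.
H2-Aa: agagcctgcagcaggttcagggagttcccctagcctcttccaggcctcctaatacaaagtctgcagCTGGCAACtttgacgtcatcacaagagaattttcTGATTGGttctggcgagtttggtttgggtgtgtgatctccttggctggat
H2-Eb1: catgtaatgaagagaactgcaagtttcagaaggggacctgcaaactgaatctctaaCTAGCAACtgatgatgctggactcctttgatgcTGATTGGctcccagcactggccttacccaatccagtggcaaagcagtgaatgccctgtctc
H2-Ob: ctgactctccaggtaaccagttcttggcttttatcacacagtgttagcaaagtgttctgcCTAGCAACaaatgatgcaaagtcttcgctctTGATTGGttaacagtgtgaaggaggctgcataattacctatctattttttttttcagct

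The X core stood before the Y core in these windows of H2-Aa, H2-Eb1 and H2-Ob, with the first bases of the cores 34, 33 and 31 bases apart. Of 32851 promoter windows searched, 3.42% held the X core, 7.82% the Y core and 14 windows (0.0426%) both in this order on 1 strand. For that count 15 to 40 bases had to lie between the end of the X core and the start of the Y core. H2-DMb1 and H2-Oa held the Y core without an exact X core. Letters that differ from the X core in 1 place stood before it, CTAGTAAC in H2-DMb1 and CCAGCAAC in H2-Oa. The search did not count these. Of the windows that begin inside their gene, that of H2-DMb2 held the Y core alone, that of H2-Eb2 both in the opposite order and those of H2-DMa neither, which describes these stretches and not the bases before the first base of the gene. The H2-Eb2 window also held CCAGCAAC before its Y core, 1 letter from the X core and not counted. A match of letters is a description and shows no binding, and a missing exact match does not show that a box is absent.

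**Figure D1:**
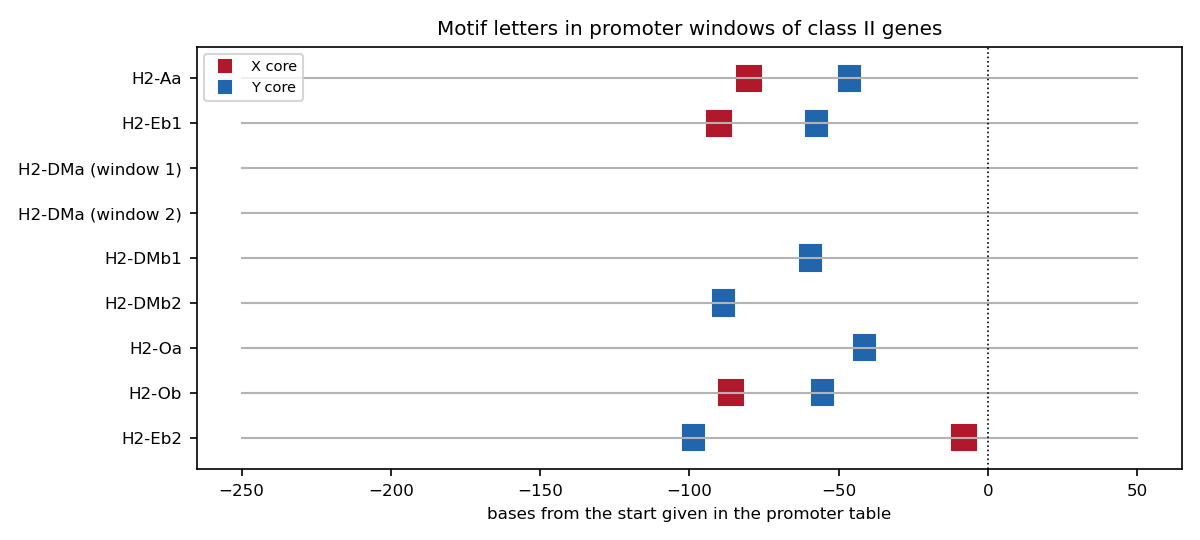
Positions of the X core (red) and the Y core (blue) in 9 promoter windows of 8 class II genes, in bases from the start that the promoter table gives (dotted line), each grey line covering 250 bases before to 50 after it. That start lies inside the annotated gene for H2-DMa, H2-DMb2 and H2-Eb2. H2-Aa, H2-Eb1 and H2-Ob held the X core before the Y core.

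Levels are the deposited log2 signals per probe set, so 1 unit is a factor of 2, and they are compared between groups of arrays for 1 probe set but not between genes. A gene took the probe set with the highest mean over the 25 arrays. The 40th percentile of all probe sets, named or not, between 5.52 and 5.80 depending on the array, served as the floor of the tests. For values close to it background light of the probe set bounds any fold. The groups with high levels differed from gene to gene. Adult liver had the highest mean of H2-Aa, H2-Ab1 and H2-Eb1, and induced macrophages had the highest mean of Cd74 and H2-DMa.

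**Figure D2:**
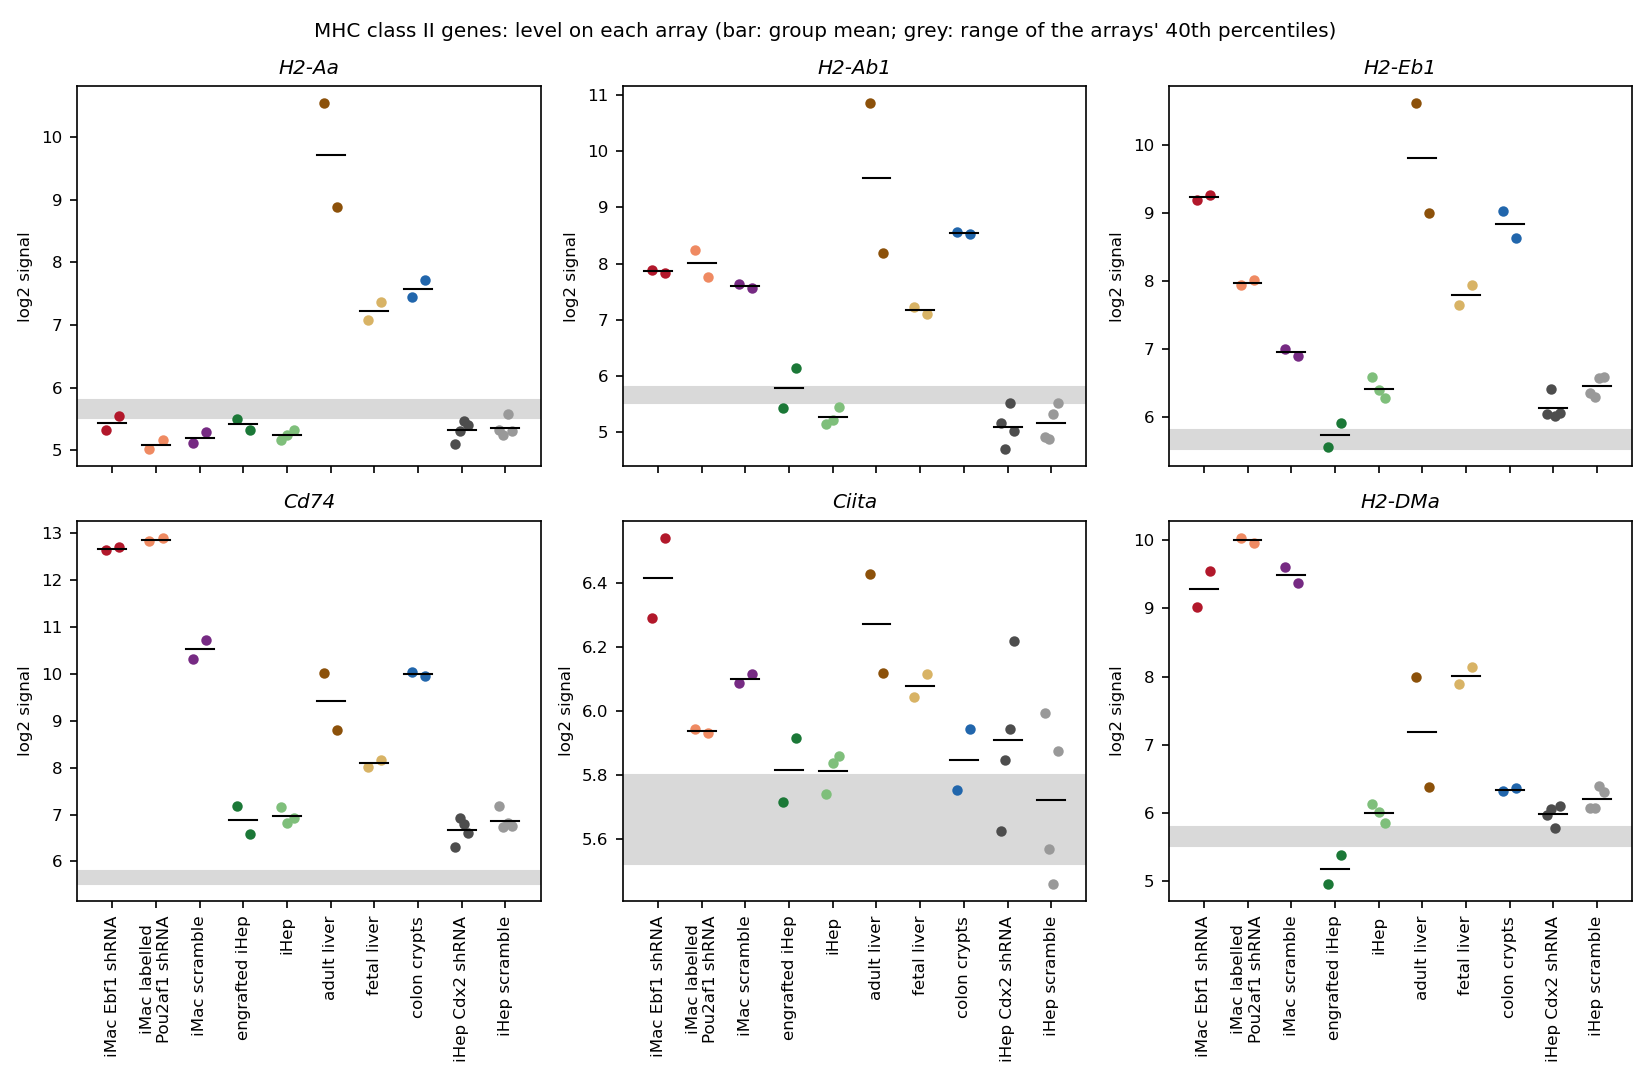
Log2 signal of the 6 genes on every array (points) with group means (bars). The grey band spans the 40th percentiles of the arrays, 5.52 to 5.80. Cd74 reached 12.82 and 12.90 in induced macrophages labelled Pou2af1 shRNA, whereas H2-Aa was above the band in adult liver, fetal liver and colon only.

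H2-Aa did not exceed the floor in any induced macrophage array at its main probe set. Its level was 10.54 and 8.89 in adult liver, 7.44 and 7.71 in colon and 7.08 and 7.36 in fetal liver, 3 groups that did not overlap, and between 5.02 and 5.59 on the other 19 arrays. The 7 groups in that low range overlapped along their order. Another probe set of H2-Aa, 1435290_x_at, spread the groups wider, with 12.72 and 11.18 in adult liver, 8.86 and 9.20 in fetal liver and 8.49 and 8.48 in colon, against 3.73 to 4.76 on the remaining arrays. It too was below the floor on all 6 induced macrophage arrays. Of the 4 probe sets, 1452431_s_at alone exceeded the floor there, on both Ebf1 shRNA arrays, at 5.63 and 5.64.

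H2-Ab1, the partner chain of H2-Aa, had its highest mean in adult liver (10.85 and 8.19), which overlapped colon (8.57 and 8.53). Below them by their means came the induced macrophages, with 7.89 and 7.83 under Ebf1 shRNA, 8.24 and 7.76 under the label Pou2af1 shRNA, which overlapped adult liver and Ebf1 shRNA, and 7.64 and 7.56 with scramble shRNA. Fetal liver followed with 7.24 and 7.10. The 4 iHep groups were lowest and overlapped along their order, between 4.70 and 6.14.

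H2-Eb1, the I-E beta chain gene, was 10.62 and 9.0 in adult liver and 9.20 and 9.27 in Ebf1 shRNA macrophages, which overlapped. Colon followed at 9.04 and 8.63, then macrophages labelled Pou2af1 shRNA at 7.93 and 8.02, which overlapped fetal liver at 7.64 and 7.94. Scramble macrophages were lower, at 7.0 and 6.90, and the iHep groups lay between 5.55 and 6.58. The 3 macrophage groups did not overlap in H2-Eb1.

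Cd74, the invariant chain, encoded on chromosome 18, was 12.82 and 12.90 in macrophages labelled Pou2af1 shRNA, 12.63 and 12.70 with Ebf1 shRNA and 10.32 and 10.73 with scramble shRNA. Colon (10.03 and 9.94) and adult liver (10.03 and 8.80) overlapped below these, and fetal liver had 8.01 and 8.17. All 4 iHep groups lay at 6.32 to 7.19 and overlapped along their order. The 3 macrophage groups did not overlap in Cd74 either, in another order than for H2-Eb1.

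H2-DMa was 10.03 and 9.96 in macrophages labelled Pou2af1 shRNA, 9.02 and 9.55 with Ebf1 shRNA and 9.61 and 9.38 with scramble shRNA, and the last pair of groups overlapped. Fetal liver (7.90 and 8.13) overlapped adult liver (8.00 and 6.39). Colon was 6.32 and 6.36, and engrafted iHeps, at 4.96 and 5.38, were below the other 3 iHep groups. Ciita, the transactivator, whose gene is on chromosome 16, was dim on every array: its 3 probe sets ran from 3.50 to 6.54, and the group means of its brightest ran only from 5.72 in scramble iHeps to 6.42 in Ebf1 shRNA macrophages.

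**Figure D3:**
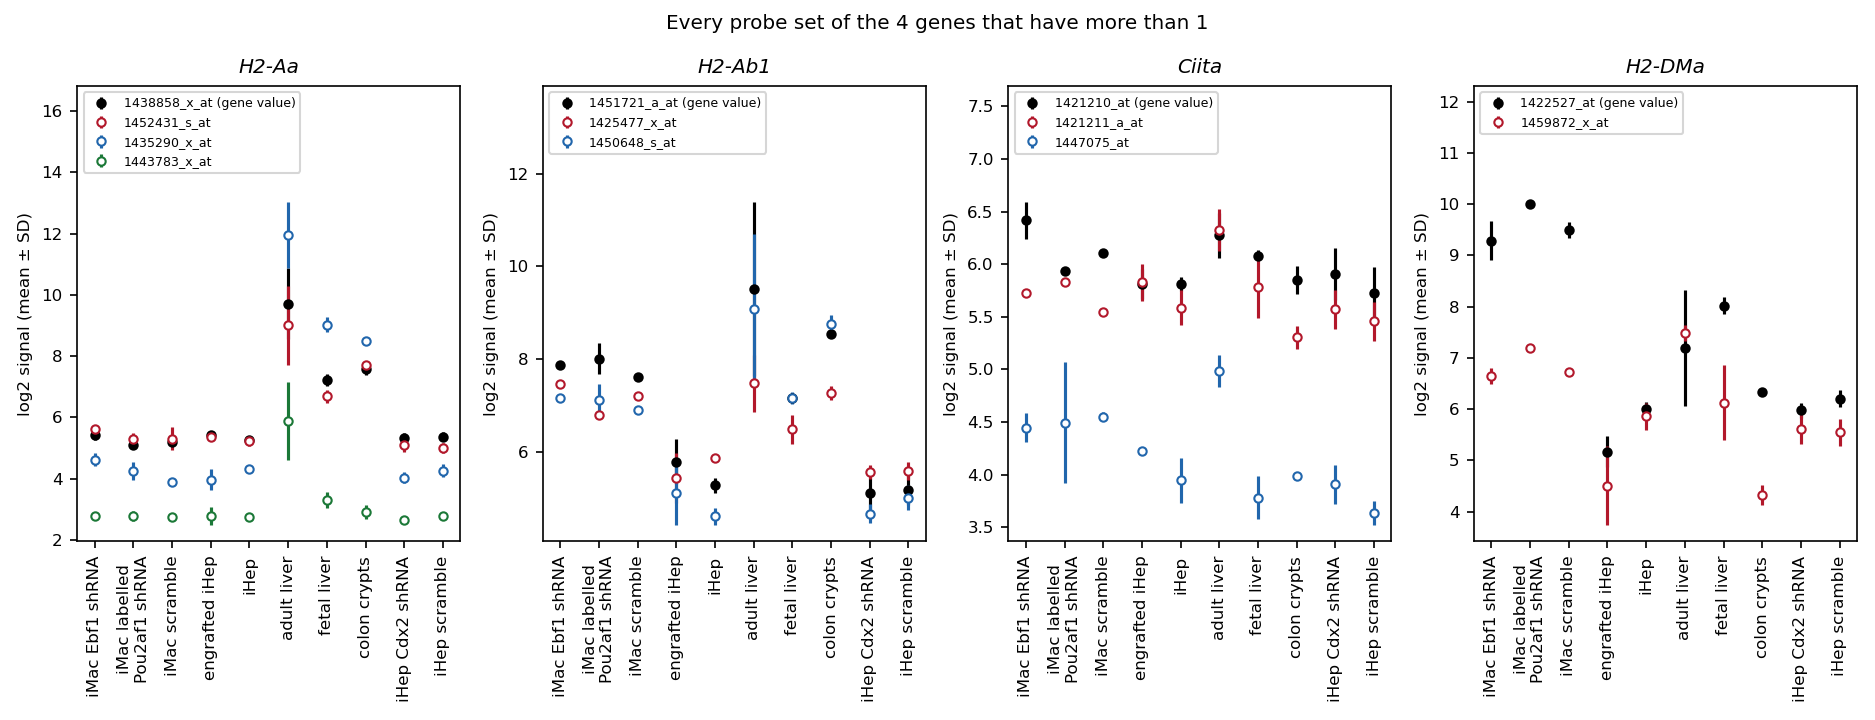
Group mean and SD of the log2 signal for each probe set of the 4 genes with more than 1 (filled: the probe set used for the gene). The H2-Aa probe set 1435290_x_at spans the widest range, from 3.73 on an engrafted iHep array to 12.72 in adult liver, and the 2 probe sets of H2-DMa order adult liver and scramble macrophages differently.

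Across the 10 group means, H2-Ab1 and H2-Eb1 ran closest together (Pearson r = 0.90), followed by Cd74 and H2-DMa (r = 0.86), whereas H2-Aa and Cd74 had r = 0.02. The points share arrays and scaling within a group, so these are descriptions. The 6 genes most like the mean of H2-Aa, H2-Ab1, H2-Eb1 and Cd74 over these means, among 15617 ranked, were Fsd2 (r = 0.96), C2cd2l (0.94), Primpol (0.93), Stab1 (0.93), Smarcc2 (0.93) and Prdm2 (0.92). Stab1, a scavenger receptor of sinusoidal endothelium and some macrophages, had a mean of 8.34 in adult liver and 5.39 in engrafted iHeps, whereas Fsd2 only ran from 5.43 to 6.01.

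The shRNA arms of the induced macrophages ask what the B cell regulators Ebf1 and Pou2af1 contribute to cells that came from a B cell line. The targeted genes come first. Ebf1 was 7.41 and 7.21 under its own shRNA, against 8.31 and 8.38 with scramble shRNA (log2 fold change -1.04 ± 0.11 SE, limma adjusted p = 0.00389). Pou2af1 was not lower under its own shRNA, at 11.34 and 11.26 against 11.25 and 11.06 with scramble shRNA (0.14 ± 0.12, limma adjusted p = 0.495), so those arrays are named by their label. Pou2af1 was higher with Ebf1 shRNA, at 12.00 and 11.81 (0.75 ± 0.12, limma adjusted p = 0.0138). Both shRNA groups are set against the same 2 scramble arrays.

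In Ebf1 shRNA macrophages, H2-Eb1 and Cd74 rose by more than a factor of 4 while the other tested members did not pass the threshold. H2-Eb1 was 9.20 and 9.27, against 7.0 and 6.90 with scramble shRNA, a 4.87-fold difference (log2 fold change 2.28 ± 0.10 SE, limma adjusted p = 0.000218, n = 2 each). Cd74 was 12.63 and 12.70, against 10.32 and 10.73, a 4.41-fold difference (2.14 ± 0.15, limma adjusted p = 0.000946). H2-Eb1 and Cd74 are 2 of the 5 members tested, and 14.4% of 12484 genes passed in this comparison, 6.21% higher and 8.16% lower with Ebf1 shRNA. H2-Ab1 differed by 0.26 (95% interval -0.14 to 0.66), Ciita by 0.31 (0.03 to 0.60, limma adjusted p = 0.126) and H2-DMa by -0.21 (-0.67 to 0.25). H2-Aa was not tested, since none of its 6 macrophage values was above the floor.

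In macrophages labelled Pou2af1 shRNA, Cd74 rose 5.05-fold and H2-Eb1 2.04-fold. Cd74 was 12.82 and 12.90, against 10.32 and 10.73 with scramble shRNA (log2 fold change 2.34 ± 0.15 SE, limma adjusted p = 0.0011). H2-Eb1 was 7.93 and 8.02, against 7.0 and 6.90 (1.03 ± 0.10, limma adjusted p = 0.00349), a call that was lost when the spread was pooled over all 25 arrays (limma adjusted p = 0.129). In this comparison 11.9% of 12484 genes passed, 6.79% higher and 5.14% lower under the label Pou2af1 shRNA. H2-Ab1 (0.40, 95% interval 0.00 to 0.80), H2-DMa (0.50, 0.04 to 0.96) and Ciita (-0.16, -0.45 to 0.12) did not pass after adjustment. The direction of H2-Ab1 and Ciita depends on the probe set, with -0.40 for H2-Ab1 at 1425477_x_at and 0.29 for Ciita at 1421211_a_at, neither past the threshold.

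Set directly against each other, the shRNA arms differed in H2-Eb1 and not detectably in Cd74. Called were 2 of the 5 members tested, H2-Eb1 and Ciita, where 16.4% of 12484 genes passed, 7.1% higher and 9.31% lower with Ebf1 shRNA. H2-Eb1 was 2.39-fold higher with Ebf1 shRNA than under the label Pou2af1 shRNA (log2 fold change 1.26 ± 0.10 SE, limma adjusted p = 0.000851). Cd74 differed by -0.20 (95% interval -0.56 to 0.16, limma adjusted p = 0.418). Ciita passed at 6.29 and 6.54 with Ebf1 shRNA, against 5.94 and 5.93 (0.48 ± 0.12, limma adjusted p = 0.0394), but not without either array labelled Pou2af1 shRNA (adjusted p = 0.145 and 0.146), without the second Ebf1 array (0.132) or without the filter (0.0718). The second Ciita probe set gave -0.11. H2-DMa was lower with Ebf1 shRNA by 0.71 and missed the threshold (limma adjusted p = 0.0522). Its second probe set gave -0.56 and passed, and so did the first without the second Ebf1 shRNA array (-0.98, limma adjusted p = 0.0198). H2-Ab1 differed by -0.14 at its main probe set but by 0.67 at 1425477_x_at (limma adjusted p = 0.014 over all probe sets), so its direction depends on the probe set. 

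**Figure D4:**
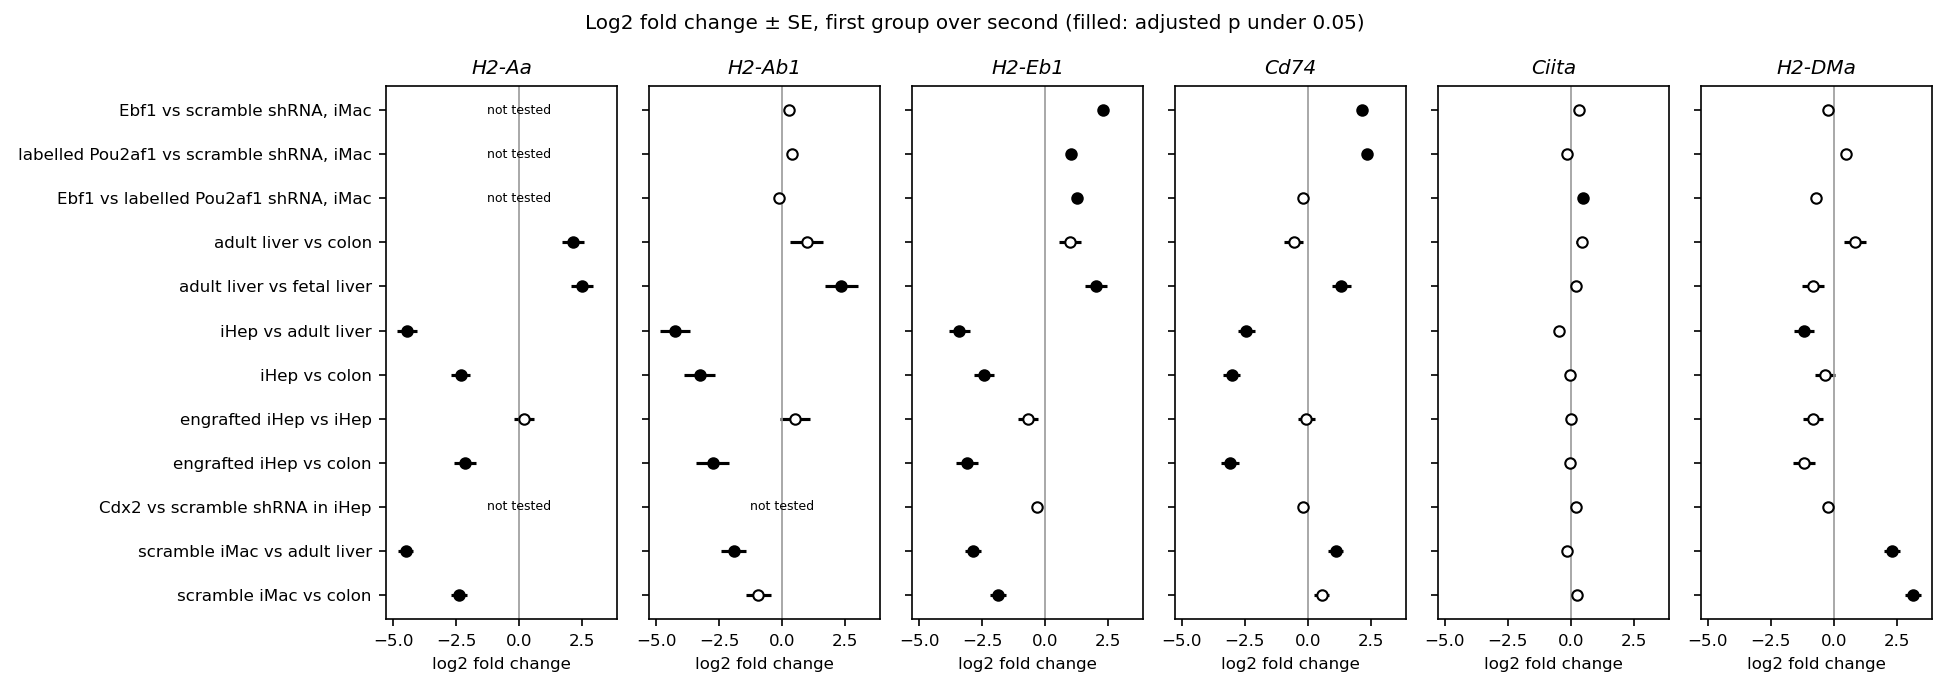
Log2 fold change with SE of each member in the 12 comparisons, first-named group over second (filled: adjusted p under 0.05). H2-Eb1 and Cd74 are filled at 2.28 and 2.14 for Ebf1 over scramble shRNA, and H2-Aa to Cd74 are filled below 0 for iHeps over adult liver and over colon. For H2-Aa and H2-Ab1 in iHeps, and H2-Aa in scramble macrophages and engrafted iHeps, the lower group was below the floor at the main probe set, so the size is set by background.

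The other class II genes also moved in part. H2-Ob, the beta chain of the H2-DM inhibitor H2-DO, was 9.47 and 9.25 with Ebf1 shRNA, against 8.04 and 8.04 with scramble shRNA (log2 fold change 1.32 ± 0.17, limma adjusted p = 0.0065), and 9.08 and 8.63 under the label Pou2af1 shRNA (0.82 ± 0.17, limma adjusted p = 0.032). Its partner H2-Oa rose by 0.73 with Ebf1 shRNA (limma adjusted p = 0.035). H2-DMb2, the beta chain partner of H2-DMa, rose by 1.28 under the label Pou2af1 shRNA (9.23 and 9.19, against 7.62 and 8.25), and so did H2-Eb2 by 0.81. In all, 2 of 5 class II partners rose with Ebf1 shRNA (median 0.20) and 3 of 5 under the label Pou2af1 shRNA (median 0.81), where the medians of all genes were -0.04 and -0.03, and none fell in either.

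Of 10 genes of endosomal processing, 2 rose with Ebf1 shRNA and 5 under the label Pou2af1 shRNA, and none fell. Over all genes 6.21% and 6.79% rose, and the counts of this and the next lists stand beside those shares. The cathepsin Ctsl rose by 1.92 with Ebf1 shRNA (12.09 and 12.17, against 10.30 and 10.13), and Lgmn, an asparaginyl endopeptidase, by 2.27 under the label Pou2af1 shRNA (10.70 and 10.71, against 8.23 and 8.65). Ctss, the cathepsin that makes the last cuts in the invariant chain of many antigen-presenting cells, was high throughout, at 13.61 and 13.48 under the label Pou2af1 shRNA and between 12.94 and 13.03 on the 4 arrays with Ebf1 or scramble shRNA. It rose by 0.58 under the label Pou2af1 shRNA (limma adjusted p = 0.019). The medians of this list were 0.04 and 0.43. Among 7 factors of the class II promoter, Nfyb rose by 0.68 with Ebf1 shRNA and Rfx5 by 0.49 under the label Pou2af1 shRNA, and no other passed, so 1 of 7 in each is close to the 14.4% and 11.9% of all genes that passed. Along the interferon gamma route, 0 of 6 genes passed with Ebf1 shRNA and 3 of 6 rose under the label Pou2af1 shRNA (Ifngr1 by 0.63, Irf1 by 0.53 and Ifngr2 by 0.45). The co-stimulator Cd40 rose by 1.94 under the label Pou2af1 shRNA (9.53 and 9.51, against 7.76 and 7.41) and Icosl by 0.96 with Ebf1 shRNA. For MHC class I, 0 of 9 genes passed with Ebf1 shRNA, and Psmb9 (0.55) and Tap1 (0.53) rose under the label Pou2af1 shRNA.

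Cell type markers are given beside these. The mean level of 7 macrophage markers was 9.78 to 9.80 with Ebf1 shRNA, 10.11 to 10.14 under the label Pou2af1 shRNA and 9.34 to 9.43 with scramble shRNA, with 5, 6 and 5 of the 7 above the floor. The mean of 7 B cell markers was 7.17 on both Ebf1 shRNA arrays, 7.66 to 7.70 under the label Pou2af1 shRNA and 7.10 to 7.45 with scramble shRNA. The mean of 7 dendritic cell markers was 6.09 to 6.10 with Ebf1 shRNA, 5.75 to 5.78 under the label Pou2af1 shRNA and 5.69 to 5.84 with scramble shRNA, and 1 of the 4 tested, the integrin Itgax, rose with Ebf1 shRNA (1.68 ± 0.12, limma adjusted p = 0.00107). Pan-leukocyte markers ran from 12.97 to 13.12 over all 6 arrays. The part of these shifts in the class II differences was not tested.

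Scramble shRNA macrophages were lower than adult liver and colon in H2-Aa and H2-Eb1, while the calls of Cd74, H2-Ab1 and H2-DMa depended on the tissue or the probe set. Relative to adult liver, 2 of the 6 members were higher (Cd74 by 1.11 ± 0.30 SE, H2-DMa by 2.31 ± 0.32) and 3 were lower (H2-Aa at least 17.7-fold, H2-Ab1 by a log2 fold change of -1.92 and H2-Eb1 by -2.86), where 72.1% of 15623 genes passed, 41.4% higher and 30.7% lower in the macrophages. The limma adjusted p was 0.00243 for Cd74 and 2.86e-06 for H2-DMa. The spread behind these was pooled over all 10 groups. Adult liver alone had an SD of 0.87 for Cd74 and 1.14 for H2-DMa, so these p-values may be too small. At its main probe set H2-Aa exceeded the floor on no macrophage array, so it entered the tests against adult liver and colon through other groups. The Cd74 call was lost on leaving out adult liver replicate 2 (0.50, adjusted p = 0.115) or after quantile normalization was repeated (0.38, adjusted p = 0.284), and that of H2-Ab1 on leaving out adult liver replicate 1 (-0.59, adjusted p = 0.117). The direction of H2-DMa depends on the probe set: the second one, 1459872_x_at, was 6.71 and 6.74 in scramble macrophages, against 7.60 and 7.38 in adult liver (-0.76 ± 0.33, limma adjusted p = 0.0438 over all probe sets). H2-Ab1 gave -0.28 at 1425477_x_at, which did not pass. Relative to colon, H2-DMa was 8.90-fold higher (3.15 ± 0.32), H2-Aa at least 4.01-fold lower and H2-Eb1 lower by a log2 fold change of -1.88, with 52.8% of genes passing, 29.3% higher and 23.6% lower. Both H2-DMa probe sets were higher there (2.40 for the second, a size that background bounds, since colon was below the floor at it). Cd74 (0.54, 95% interval -0.08 to 1.16, limma adjusted p = 0.14) and H2-Ab1 (-0.95, -2.0 to 0.11, limma adjusted p = 0.125) did not pass against colon, although a further H2-Ab1 probe set, 1450648_s_at, did (-1.85, adjusted p = 0.00173).

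In adult liver, H2-Aa, H2-Ab1, H2-Eb1 and Cd74 were higher than in fetal liver. Their log2 fold changes were 2.49 ± 0.43 SE (5.63-fold, limma adjusted p = 0.000885), 2.35 ± 0.66 (5.11-fold, limma adjusted p = 0.0136), 2.02 ± 0.44 (4.04-fold, limma adjusted p = 0.00374) and 1.32 ± 0.37 (2.5-fold, limma adjusted p = 0.0138). Of 15262 genes, 49.3% passed, 18.2% higher and 31.1% lower in adult liver. Adult liver had an SD of 1.88 for H2-Ab1, above the pooled spread, so p-values here may be too small. Ciita differed by 0.19 (95% interval -0.27 to 0.66). H2-DMa differed by -0.82 (-1.79 to 0.14) at its main probe set and by 1.37 at the second, which passed (limma adjusted p = 0.02), so its direction depends on the probe set. H2-Ab1 was not called without fetal liver replicate 1 (adjusted p = 0.0573) or 2 (0.067), nor Cd74 without fetal liver replicate 1 (0.0757) or adult liver replicate 1 (0.0966), and H2-DMa was called lower without adult liver replicate 1 (-1.63). MHC class I genes differed in the same direction, 7 of 9 being higher in adult liver and none lower (median 1.77, against -0.16 for all genes). Nlrc5, the class I counterpart of Ciita, was 10.43 and 10.41 in adult liver, against 5.09 and 5.53 in fetal liver. The Ciita partner Rfx5 was higher by 1.45 and 5 of the 7 promoter factors were lower. Cell type markers moved too: 2 of 2 erythroid markers were lower in adult liver (median -4.72), 2 of 5 pan-leukocyte markers lower (median -1.83) and 3 of 5 hepatocyte markers higher (median 2.53). Their part in the class II differences was not tested.

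The 2 adult liver arrays differed from each other at the main probe sets, by an amount that varied between members. Replicate 1 was above replicate 2 by 2.66 for H2-Ab1, 1.65 for H2-Aa, 1.62 for H2-Eb1, 1.61 for H2-DMa, 1.23 for Cd74 and 0.31 for Ciita, where the central 95% of 15623 genes lay between -1.08 and 1.32. Cd74 and Ciita lay inside that range. Replicates 1 and 2 differed less at H2-DMa 1459872_x_at (7.60 and 7.38) and H2-Ab1 1425477_x_at (7.91 and 7.04). Of the other probe sets only Ciita 1447075_at was lower on replicate 1 (4.88 against 5.09), below the floor. Replicate 1 also had more of the Kupffer cell markers (median difference 2.12 over 6 genes), the pan-leukocyte markers (1.87 over 5) and the macrophage markers (1.28 over 7), while the hepatocyte markers differed by -0.07. The Kupffer cell markers Vsig4 and Clec4f were 12.34 and 12.54 on replicate 1, against 10.02 and 10.73 on replicate 2. The B cell list moved by 0.47 and the T and NK cell list by 0.02. In bulk samples such as these, fewer cells of a type and less RNA per cell cannot be told apart, and the part of these markers in the class II levels was not tested.

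Adult liver and colon differed in H2-Aa, which was 10.54 and 8.89 in adult liver, against 7.44 and 7.71 in colon (4.40-fold, log2 fold change 2.14 ± 0.43 SE, limma adjusted p = 0.00188). This was 1 of 6 members, where 60.7% of 15262 genes passed, 24.8% higher and 35.9% lower in adult liver. H2-Eb1 (0.98, 95% interval -0.02 to 1.97), H2-Ab1 (0.97, -0.51 to 2.45), H2-DMa (0.85, -0.12 to 1.81), Ciita (0.43, -0.04 to 0.89) and Cd74 (-0.57, -1.41 to 0.26) did not pass. The second probe sets of H2-DMa (3.16) and Ciita (1.02) did pass, higher in adult liver. Neither colon array exceeded the floor at these probe sets, so background bounds both sizes. The calls depended on the adult liver array: without replicate 1, Cd74 was lower by 1.19 in adult liver (adjusted p = 0.0117), and without replicate 2, H2-Ab1 (2.30), H2-Eb1 (1.79) and H2-DMa (1.65) were called higher. H2-Aa passed in both cases. Of the class II partners, H2-Ob (1.75), H2-Eb2 (1.65) and H2-Ea (1.01), annotated as a transcribed pseudogene, were higher in adult liver.

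The colon arrays held class II signal together with leukocyte markers. All 5 pan-leukocyte markers were above the floor in colon, at a mean of 8.27 and 8.52, and 5 to 6 of 7 macrophage markers, at a mean of 7.33 to 7.37. At most 1 of 7 B cell markers was above it. The epithelial markers were near their top, with Epcam at 13.61 and 13.67. The plot of class II genes against leukocyte markers shows adult liver replicate 2 and the colon arrays at nearly the same leukocyte level.

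**Figure D5:**
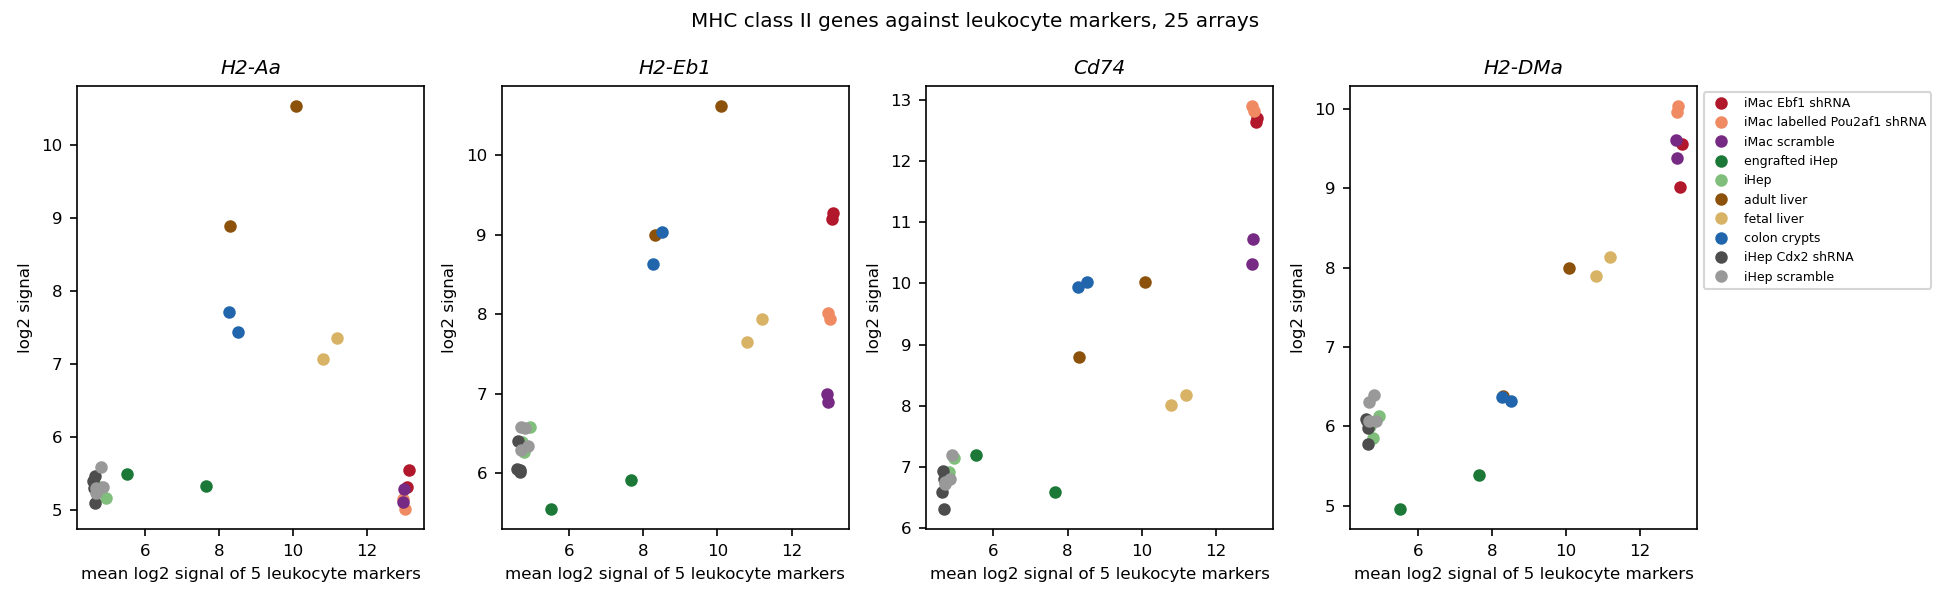
Log2 signal of 4 class II genes against the mean log2 signal of 5 pan-leukocyte markers, 1 point for each of 25 arrays. The induced macrophage arrays sit at 12.97 to 13.12 on the horizontal axis with H2-Aa at 5.02 to 5.55, and engrafted iHep replicate 2 sits at 7.66 with Cd74 at 6.59.

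iHeps were lower than adult liver in 5 of the 6 members. H2-Aa was 5.17, 5.25 and 5.32 in iHeps, against 10.54 and 8.89 in adult liver (at least 17.6-fold lower, limma adjusted p = 9.8e-06). H2-Ab1 was at least 15.3-fold lower (limma adjusted p = 0.000206). Both are bounds, the tissue mean against the higher of floor and value on each iHep array. No iHep array exceeded the floor at the main probe sets, so these genes entered the test through the tissues alone. At H2-Ab1 1425477_x_at all 3 iHep arrays did exceed it. Probe sets disagreed on the size, with log2 fold changes of -4.47 and -7.65 at the main H2-Aa probe set and 1435290_x_at, and of -4.25 and -1.62 at the main H2-Ab1 probe set and 1425477_x_at. The iHep arrays were below the floor at H2-Aa 1435290_x_at too, so background bounds that size. The log2 fold changes were -3.40 ± 0.40 for H2-Eb1, -2.45 ± 0.34 for Cd74 and -1.19 ± 0.39 for H2-DMa (limma adjusted p between 6.57e-05 and 0.0258). In this comparison 55.9% of 15262 genes passed, 37.8% higher and 18.2% lower in iHeps. Ciita did not pass (-0.46, 95% interval -0.89 to -0.04, limma adjusted p = 0.0632), although its second probe set did (-0.74, adjusted p = 0.0174). H2-DMa was not called without adult liver replicate 1 (-0.39, adjusted p = 0.26), without iHep replicate 2 (0.0568) or 3 (0.066), or with a replicate block (-1.12, adjusted p = 0.0805), while its second probe set passed (-1.63).

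Against colon, 4 members were lower in iHeps: Cd74 by a log2 fold change of -3.02 ± 0.34 (8.12-fold lower), H2-Eb1 by -2.42 ± 0.40, and, as bounds against the floor, H2-Ab1 at least 7.82-fold and H2-Aa at least 3.99-fold, with limma adjusted p between 7.4e-05 and 0.00141. These bounds are for the main probe sets. At H2-Ab1 1425477_x_at all 3 iHep arrays exceeded the floor, at 5.93, 5.88 and 5.76, against 7.15 and 7.38 in colon, a smaller difference. In this comparison 53.6% of 15262 genes passed, 32.3% higher and 21.3% lower in iHeps. Ciita gave -0.04 (95% interval -0.46 to 0.39) and was not called. H2-DMa gave -0.35 at its main probe set and 1.53 at the second, which passed (limma adjusted p = 0.00642). Colon was below the floor at the second, so background bounds that size. Both contrasts use the same 3 iHep arrays.

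The cathepsin Ctss was also low in iHeps, at 5.02, 4.46 and 4.34, against 13.18 and 11.12 in adult liver (-7.55 ± 0.54, limma adjusted p = 2.7e-06) and 13.12 and 13.16 in colon (-8.54 ± 0.54). No iHep array exceeded the floor for Ctss, so it entered these tests through other groups and background bounds both sizes. Ctsl, an alternative cathepsin, was 13.07, 13.46 and 13.47 in iHeps and did not pass against adult liver, but was higher by 2.31 against colon. Of the interferon gamma receptor genes, Ifngr1 (1.66) and Ifngr2 (1.31) were higher in iHeps than in adult liver. Of the promoter factors, 2 of 7 were higher than in adult liver (Rfxap by 2.01 and Nfya by 1.46), where a larger share of all genes, 37.8%, was higher. Rfxank, a subunit of the same RFX complex as Rfxap and Rfx5, was lower by 0.71. Nlrc5 was lower by 3.69 than in adult liver, among 6 of 9 class I genes that were lower and none higher, where 18.2% of all genes were lower. Leukocyte markers were at their own low end in iHeps, with a mean of 4.72 to 4.94 and at most 1 of 5 above the floor.

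After 12 days in the colon, no member was called at its main probe set between engrafted iHeps and cultured iHeps, while H2-DMa was called lower in other settings. H2-Eb1 was 5.55 and 5.91 in engrafted iHeps, against 6.58, 6.39 and 6.27 in cultured iHeps (-0.68, 95% interval -1.59 to 0.22, limma adjusted p = 0.19). H2-DMa was 4.96 and 5.38, against 6.13, 6.01 and 5.85 (-0.83, -1.71 to 0.05, limma adjusted p = 0.11), and it was called lower at its second probe set (-1.35, adjusted p = 0.0139), with the mean of its probe sets (-1.09, adjusted p = 0.0102) and with all 25 arrays in 1 model (adjusted p = 0.0212). Of its values at both probe sets, 0 of 4 exceeded the floor in engrafted iHeps, against 6 of 6 in cultured iHeps. The intervals were -0.84 to 1.86 for H2-Ab1, -0.83 to 0.69 for Cd74 and -0.42 to 0.43 for Ciita. All comparisons in this model pool the spread over its groups, and adult liver spread widely. The SD of H2-DMa was 1.14 there, against 0.14 in cultured and 0.30 in engrafted iHeps, and that of H2-Ab1 1.88, against 0.16 and 0.50. A missing call therefore does not show that a member stayed the same. In comparisons with adult liver the same pooling can make an SE and a p-value too small. H2-Aa was below the floor on all 5 arrays, so no difference could be measured for it. None of the other 5 was called, where 48% of 15262 genes passed, 18.2% higher and 29.7% lower in engrafted iHeps. Around them the endosomal genes did change: Ctss rose to 11.30 and 10.27 in engrafted iHeps, against 4.34 to 5.02 in cultured iHeps (6.18 ± 0.54, limma adjusted p = 2.2e-05), Ifi30, the lysosomal thiol reductase, rose by 1.83 and Ifngr2 by 1.86, while Ctsl fell by 1.88 and Lgmn fell by 1.99. Cultured iHeps were below the floor for Ctss, so background bounds the size of its rise. The co-stimulator Cd83 rose by 2.08.

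Relative to colon crypts, engrafted iHeps were lower in 4 of the 6 members. Cd74 was 7.19 and 6.59 in engrafted iHeps, against 10.03 and 9.94 in colon (8.54-fold lower, log2 fold change -3.09 ± 0.37 SE, limma adjusted p = 0.000958), and H2-Eb1 was lower by -3.11 ± 0.44 (8.60-fold, limma adjusted p = 0.0021). H2-Ab1 (-2.76 ± 0.66, limma adjusted p = 0.0205) and H2-Aa (at least 3.83-fold, limma adjusted p = 0.00968) were also lower. H2-Aa exceeded the floor on no engrafted array, so it entered the test through the tissues alone. In this comparison 16.8% of 15262 genes passed, 7.1% higher and 9.66% lower in engrafted iHeps. Without colon replicate 1 or 2, H2-Aa (adjusted p = 0.0552 and 0.0773) and H2-Ab1 (0.11 and 0.104) were not called, nor was H2-Ab1 without engrafted iHep replicate 1 (0.0593), and the direction stayed the same. Nlrc5 (-4.29), Psmb9 (-3.98) and Psmb8 (-3.29) were lower as well, among 7 of 9 class I genes, and Ctss was lower by 2.36.

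The 2 engrafted arrays differed in markers of other cells. Csf1r, the CSF-1 receptor of macrophages, was 9.74 on replicate 2 against 4.04 on replicate 1, Lyz2 was 11.37 against 6.11, and Laptm5 was 10.48 against 6.87. The mean of 5 pan-leukocyte markers was 7.66 on replicate 2, with all 5 above the floor, and 5.52 on replicate 1, with 2 above it, and the mean of 5 fibroblast markers was 10.72 and 6.92. Among class II genes, Cd74 was 6.59 on replicate 2 and 7.19 on replicate 1, and H2-Aa was 5.33 and 5.50, whereas H2-Ab1 was 6.14 and 5.43 and H2-Eb1 5.91 and 5.55. The part of these cells in the class II levels was not tested. On the colon arrays, where Csf1r was 9.07 and 9.19, Cd74 was 10.03 and 9.94.

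With Cdx2 shRNA in iHeps, no class II gene changed detectably. Cdx2, an intestinal transcription factor, fell by 1.16 (limma adjusted p = 0.00397). H2-Eb1 was 6.04, 6.40, 6.01 and 6.05 with Cdx2 shRNA, against 6.34, 6.30, 6.56 and 6.58 with scramble shRNA (-0.32 ± 0.12 SE, limma adjusted p = 0.221). Cd74 (-0.21, 95% interval -0.56 to 0.14), Ciita (0.19, -0.17 to 0.54) and H2-DMa (-0.23, -0.48 to 0.02) did not pass either. H2-Aa and H2-Ab1 were not above the floor on enough arrays to be tested. None of the 4 members tested was called, where 2.21% of 13650 genes passed, 0.535% higher and 1.68% lower with Cdx2 shRNA. H2-D1, an MHC class I heavy chain, fell by 0.73, and 1 of 9 class I genes passed in all.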

How the data were processed

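Total RNA (100 ng) was amplified, labelled with biotin and hybridised to 25 arrays, per the labels' protocols. The deposited values are log2 signals per probe set, made by the authors with RMA per the submitters' processing notes, version not given in the sources used here. Precision is set by the number of arrays. Of 45101 probe sets, 34945 carried 1 gene symbol in the platform annotation, 932 several, 9160 none, and 64 were controls. Each gene took its probe set with the highest mean.

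Models (lmFit and eBayes, limma 3.58.1 in R 4.3.3) held the macrophage arrays (3 residual degrees of freedom), all tissue, iHep and engrafted arrays (6), the Cdx2 arrays (6), or, for macrophages against tissues, all 25 (15). A gene was tested where above its array's 40th percentile on 2 or more of a model's arrays. Calls were made at 0.05 after Benjamini-Hochberg adjustment of two-sided p-values over every gene of a comparison. Where no array of a group exceeded that percentile, the fold is a bound, the other group's mean over the higher of percentile and value on each array. The procedure was tested on simulated data. Apart from the iHep lines, labels name no separate cultures or animals, so the p-values reflect sample-to-sample spread, which may be technical. In the Cdx2 model, arrays with the same number moved together (r = 0.53, 0.32, 0.58 and 0.44), where the block changed no member's call but raised the genes called to 760 from 302. Other comparisons had 2 pairs and their numbers were not taken to pair arrays.

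Members and lists were chosen with earlier results of these data known. Named were the 6 members, up to 4 list genes past the threshold and 2 not past it, class II partners, promoter factors, shRNA targets and the 6 most alike genes. Other list genes printed, among them Vsig4, Clec4f, Csf1r, Lyz2, Laptm5 and Epcam, were chosen after their values were seen. Alternatives were no filter, the mean of probe sets, repeated quantile normalization, centring each array, 1 model of all arrays, a replicate block and leaving out each array. Added after seeing the data were every probe set in 1 fit, a crossed block and the Ebf1 comparison fitted alone. Figures used matplotlib 3.10.9 in Python 3.11.15.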

Additional observations from a re-analysis of the deposited data

Results flagged for a closer look

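Among 12 combinations of a member and a group of 4 arrays, 1 had a sample far from the others: H2-Eb1 on Cdx2 shRNA iHep replicate 2, at 6.4 against 6.04, 6.01 and 6.05 on the other 3. Chance alone is expected to single out about 1 group in 20. The level lay within the range of the scramble shRNA iHeps (6.30 to 6.58).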

How the results depend on the processing

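No member reversed its direction while passing the threshold in any alternative by gene. By probe set H2-DMa did, in scramble macrophages against adult liver, where its main and second probe sets passed in opposite directions. Over single member calls, 651 values in alternatives kept their side of the threshold, 25 passed only in the alternative and 23 only in the main fit. Members not tested for want of signal above the floor, H2-Aa in macrophages and H2-Aa and H2-Ab1 with Cdx2 shRNA, did not pass with no filter or with all 25 arrays in 1 model. For Ebf1 against scramble shRNA, 2 members passed under every alternative, including the 4 arrays fitted alone. For the label Pou2af1 shRNA against scramble, 2 became 1 with all 25 arrays in 1 model. For Ebf1 against the label Pou2af1 shRNA, 2 became 1 with no filter, with all 25 arrays, with the replicate block and, leaving out 1 array, in the range 1 to 2. For adult liver against colon, 1 became 3 with the mean of probe sets, repeated quantile normalization or all 25 arrays, and 1 to 4 leaving out 1 array. For adult against fetal liver leaving out 1 array gave 2 to 4 (main 4). For engrafted iHeps against iHeps, 0 became 1 (H2-DMa) with the mean of probe sets or all 25 arrays, and for engrafted iHeps against colon leaving out 1 array gave 2 to 4 (main 4). For scramble macrophages against colon, 3 became 5 with the mean of probe sets. The replicate block ended H2-DMa in iHeps against adult liver (-1.12, adjusted p = 0.0805) and Ciita between the shRNA arms (0.0541), and changed no other member's call; the crossed block left 4 members in adult against fetal liver. Repeated quantile normalization moved the median of all genes by 0.39 in adult liver against colon, where H2-Eb1 became 1.72 and H2-Ab1 1.73, by -0.28 in iHeps against adult liver and by -0.31 in scramble macrophages against adult liver. Counts over all genes moved most with Ebf1 shRNA (1794; 1120 with no filter, 432 with all 25 arrays, 507 to 825 leaving out 1 array), the label Pou2af1 shRNA (1490; 923, 315, 355 to 450), both arms (2048; 659 with all arrays, 892 to 1308), engrafted iHeps against colon (2557; 5540 with all arrays, 774 and 779 without a colon array) and Cdx2 shRNA (302; 73 with all arrays, 760 with the block). The cause of these changes was not tested.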
